A study of Mus musculus with 12 samples.

Results

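Proteins that write, erase or read chemical marks on histones, and the SWI/SNF complexes that use ATP to move nucleosomes, were examined in gut epithelial cells of mice lacking a copy of the large isoform of CHD8, itself an ATP-dependent chromatin remodeler. The genes were chosen by name alone, as every row of the table whose symbol starts with Kdm and a digit from 1 to 8, Kmt2, Setd, Smarc, Arid and a digit from 1 to 5, or Hdac and a digit. Of the 14244 rows, 65 matched. By the GENCODE M21 annotation of GRCm38 (the build also called mm10), 64 of them are protein-coding genes and 1, Smarca5-ps, is a transcribed processed pseudogene, a copy of a spliced RNA that was inserted elsewhere in the genome. Poly(A) RNA was sequenced from 5 wild type (WT) and 7 Chd8L+/- mice, all C57BL/6 male littermates of 8 weeks. Chd8L+/- mice carry a constitutive deletion of exons of Chd8 on 1 allele, in every tissue, so the epithelium was not the only tissue affected. Values are normalized counts, which are reads counted on a gene divided by a size factor of the library, and the reads recovered from them came to between 15691662 and 20761315 per library.

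Histone methyltransferases of the Kmt2 and Setd1 families add methyl groups to lysine 4 of histone H3, a mark of active promoters and enhancers, and other SET domain proteins methylate other lysines or proteins that are not histones. Lysine demethylases (Kdm) take such groups off, and histone deacetylases (Hdac) remove acetyl groups and often act within co-repressor complexes. SWI/SNF complexes are built around 1 of a pair of ATPases, Smarca4 or Smarca2, with core subunits. In many of them, though not all, an ARID protein sets the kind of complex. In the intestine, enzymes of these classes take part in the change from dividing crypt cells to differentiated villus cells, and subunits such as ARID1A are often mutated in tumours.

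The 2 genotypes were compared by limma, a linear model fitted to log2(normalized count + 1) of each gene. Its p-values were Benjamini-Hochberg adjusted over 12808 genes, those that averaged 10 or more normalized counts. Of the 65 genes, 64 were in this comparison, and Hdac9 fell under the minimum. At an adjusted p of 0.05 or less from limma, 0 of the 64 were higher and 0 lower in Chd8L+/- libraries, beside 0 genes higher (0%) and 3 lower (0.0234%) of all genes tested. The smallest adjusted p of a histone modifier or SWI/SNF gene was 0.121. With no adjustment, 15 of the 64 (23.4%) were higher and 0 lower at a p of 0.05 or less, while 12.5% of all genes tested were higher and 11.8% lower at that level. edgeR's quasi-likelihood test on the recovered reads likewise gave 0 genes of the 64 at an adjusted p of 0.05 or less, beside 0% of all genes higher and 0.039% lower. At that p unadjusted edgeR had 12 of the 64 higher and 0 lower, where 10% of all genes were higher and 12.3% lower. DESeq2 on the recovered reads gave 3 of the 63 it tested as higher at an adjusted p of 0.05 or less (Hdac4, Setd5 and Kdm3b) and 0 as lower, where 1.84% of all genes it tested were higher and 4.61% lower. The log2 fold change was above 0 for 48 of the 64 genes (75%) and for 51.4% of all genes tested. Its median was 0.13 over the 64 and 0.01 over all genes. In 0 of the 64 did the libraries of the 2 genotypes fall into ranges that do not overlap; of all genes tested, 0.242% lay apart on the higher side and 0.273% on the lower.

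The WT libraries did not lie together. Averaged over the 64 genes, log2(normalized count + 1) was 8.87, 8.94, 8.63, 8.75 and 8.69 in WT replicates 1 to 5 and ran from 8.92 to 8.98 in the 7 Chd8L+/- libraries. WT replicate 2 lay inside the Chd8L+/- range, and the other WT libraries lay under it. On the first principal component of all genes, with 39.7% of the variance, WT replicate 2 stood at 41.0, among the Chd8L+/- libraries (0.26 to 42.7), and the other 4 WT libraries stood between -67.5 and -26.2. It was also the highest WT library for each of the 15 genes with an unadjusted p of 0.05 or less. Without WT replicate 2, 16 of the 64 genes were higher and 2 were lower at an adjusted p of 0.05 or less from limma, where 14% and 13.6% of all genes tested were higher and lower. This library was singled out with its place among the Chd8L+/- libraries known, and leaving it out widens the contrast. Adjusted p-values without it, here and below, therefore describe that fit and are not a separate test of any gene. The 16 were Arid2, Arid5b, Hdac4, Hdac6, Kdm1b, Kdm2b, Kdm3b, Setd1a, Setd5, Setd6, Setdb1, Smarca4, Smarca5-ps, Smarcad1, Smarcal1 and Smarcc1, and the 2 were Kdm4a and Setd3. Several groups of marker genes set this library beside the Chd8L+/- mice in the same way. Over 20 genes of the S and G2/M phases, the mean log2(normalized count + 1) was 8.67, 9.63, 7.34, 7.51 and 8.32 in WT replicates 1 to 5 and 8.81 to 9.79 in Chd8L+/- libraries. Of these 20 genes, 20 had a log2 fold change above 0 and 19 an unadjusted p of 0.05 or less, with a median of 0.96, and 0 an adjusted p of 0.05 or less from limma. The mean of the tuft cell markers was 7.85 in WT replicate 2, 9.89 to 11.1 in the other WT libraries and 6.91 to 9.60 in Chd8L+/- libraries. Enterocyte markers stood at 14.9 in WT replicate 2, 15.7 to 15.9 in the other WT libraries and 14.5 to 15.8 in Chd8L+/- libraries. For myeloid markers these values were 6.91, 5.68 to 6.01 and 6.20 to 7.38, and for stromal markers 5.44, 2.51 to 3.59 and 3.34 to 7.27. How far dividing cells or these cell types enter the values of the histone modifiers was not tested, and in RNA from whole epithelial preparations fewer cells of a type and less RNA per cell cannot be told apart. By immunostaining, the paper counted fewer tuft cells in the small intestine of Chd8L+/- mice, with no change in the colon. It proposes that the drop in tuft cells lowered their marker RNA.

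**Figure D1:**
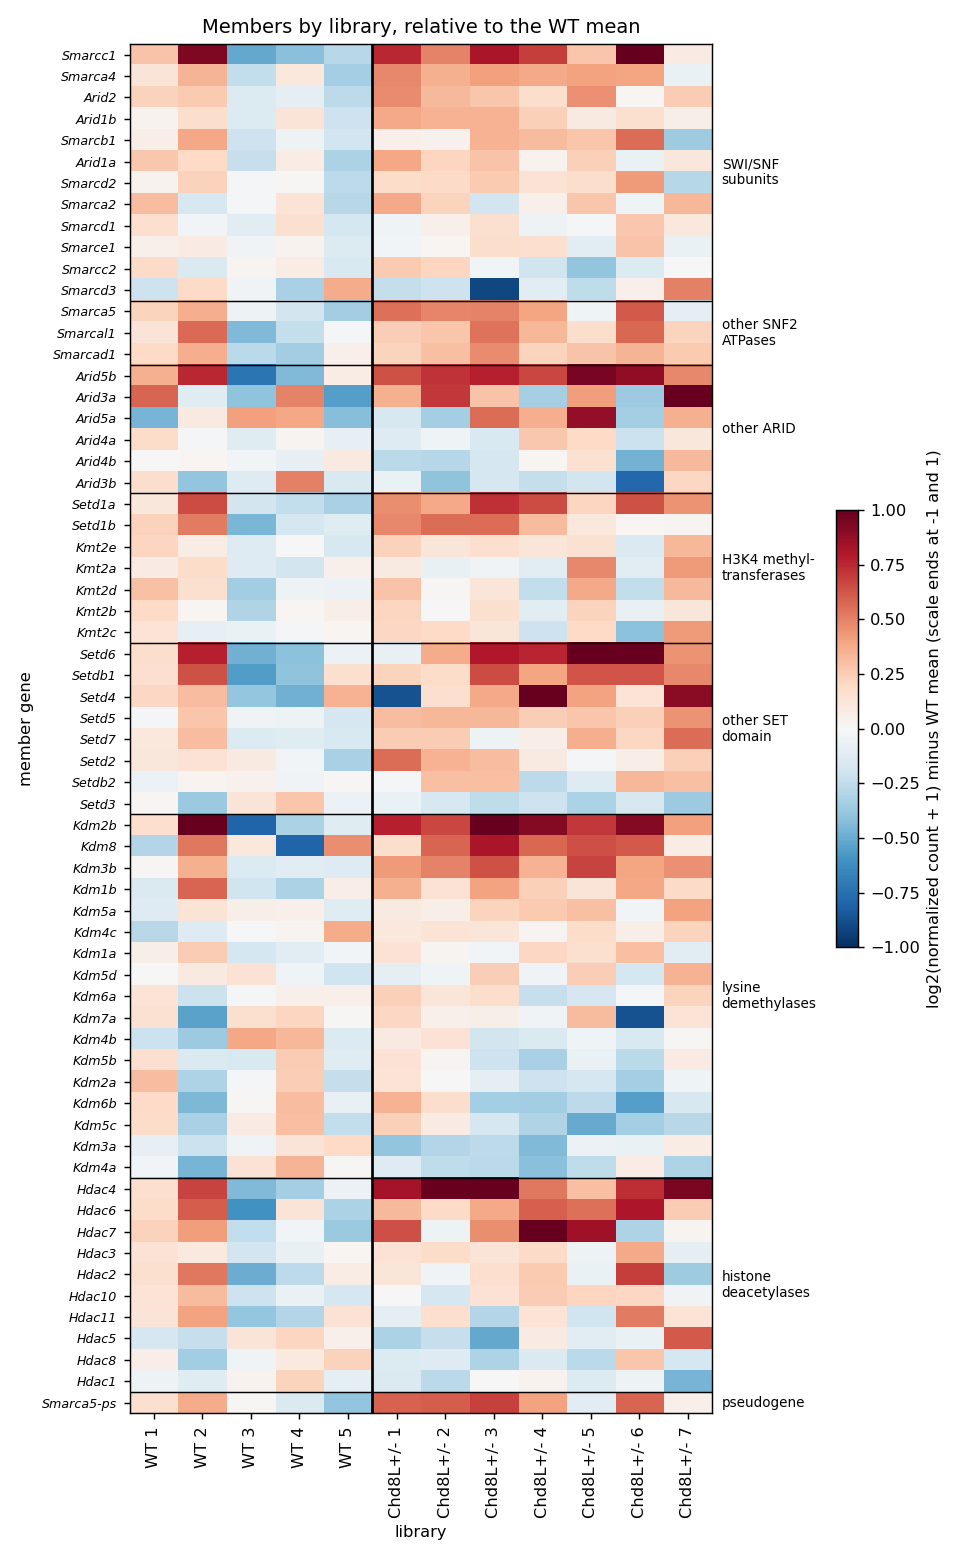
Each row is 1 of the 64 genes tested, grouped by role, and each column 1 library (5 WT on the left, 7 Chd8L+/- on the right). Color gives log2(normalized count + 1) minus the mean of the WT libraries, with the scale ending at -1 and 1. Red covers more of the Chd8L+/- columns than of the WT columns other than WT replicate 2, and the lysine demethylases hold both red and blue rows.

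Long genes and genes of differing base composition can shift together between libraries. With each library's trends on exon length and GC content removed, 8 of the 64 genes were higher and 4 lower at an unadjusted p of 0.05 or less, where 11.1% and 12.7% of all genes were. The median log2 fold change of the 64 was then 0.06, against -0.02 for all genes, and 40 of the 64 stood above 0. The median exon length of the 64 genes was 7444 bases.

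The targeted gene Chd8 had 1002, 1050.2, 934, 955 and 823 normalized counts in WT replicates 1 to 5 and a lowest, median and highest value of 1084, 1281 and 1483 in Chd8L+/- libraries. All 7 Chd8L+/- libraries lay above the WT libraries (log2 fold change 0.44, standard error (SE) 0.10, limma adjusted p = 0.121). The adjusted p was 0.00378 in DESeq2, and 0.00676 in limma without WT replicate 2. Reads were counted over the whole gene and do not separate the deleted exons from the rest. By real-time PCR in gut epithelial cells, the paper found the deleted exons lower and the first exon higher in Chd8L+/- mice.

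**Figure D2:**
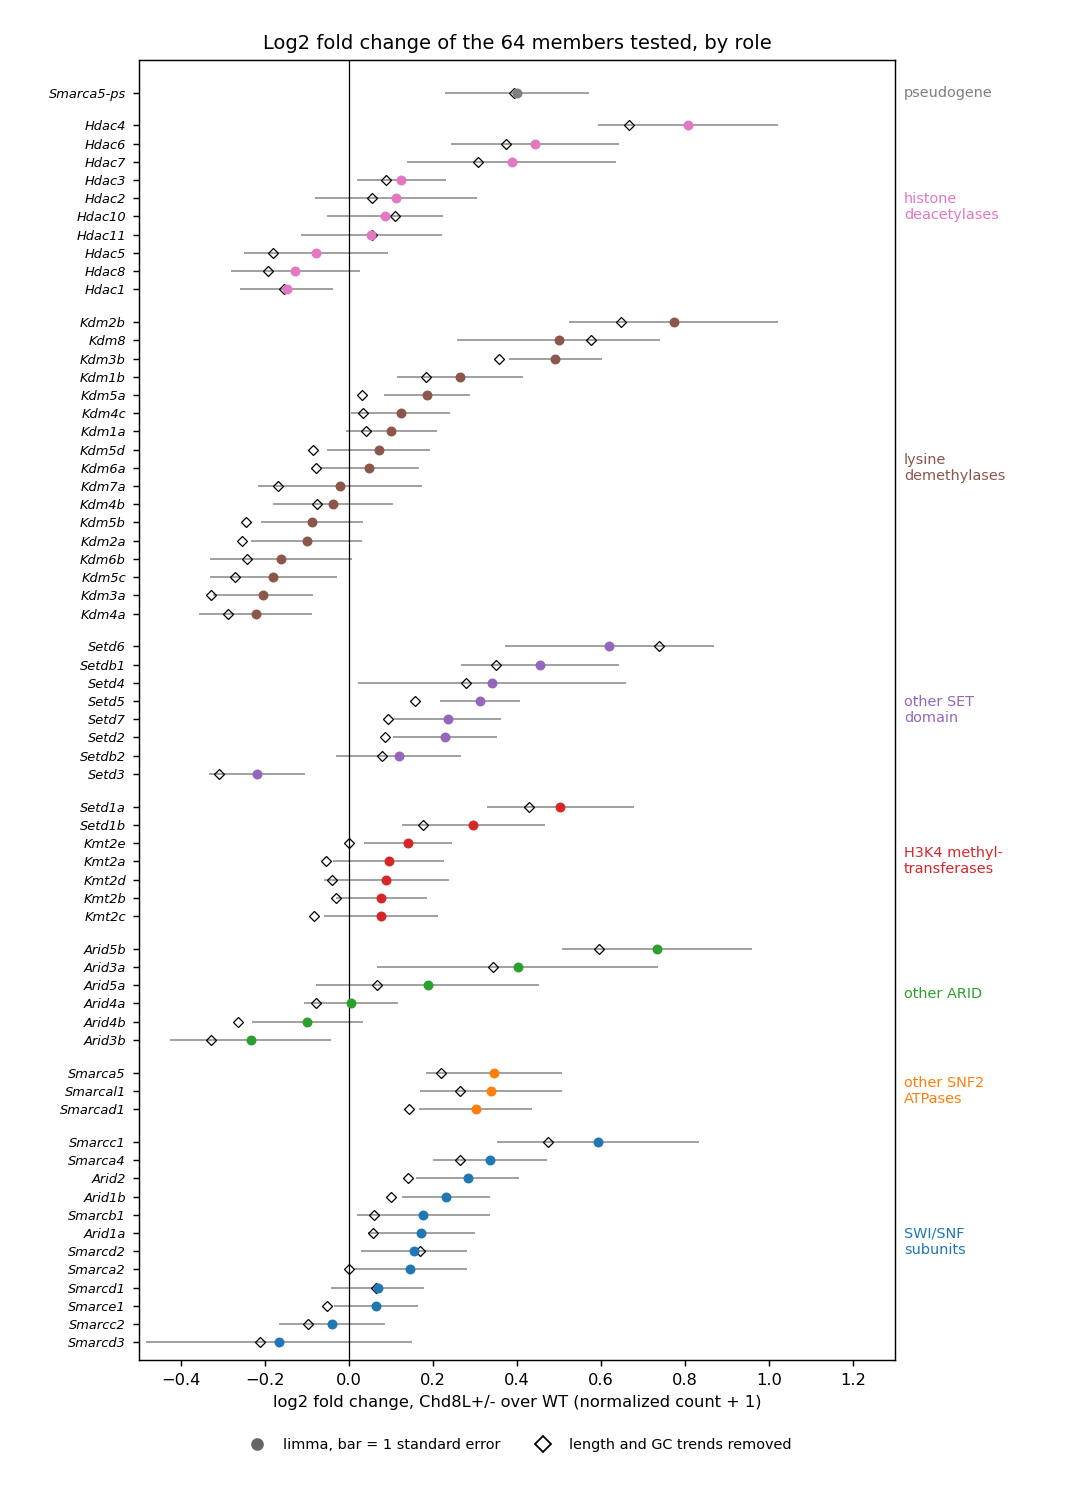
Log2 fold change of Chd8L+/- over WT libraries on the log2(normalized count + 1) scale for the 64 genes tested, ordered within each role. Points are the estimates from limma with bars of 1 standard error (SE), and open diamonds are the estimates with length and GC trends removed. Hdac4 has the highest estimate (0.81) and Arid3b the lowest (-0.23).

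SWI/SNF subunits were the largest group of remodeler genes, with 12 members tested. The log2 fold change was above 0 in 10 and below 0 in 2, with a median of 0.16. Smarcc1, Smarca4, Arid2 and Arid1b (4 of the 12, all higher) had an unadjusted p of 0.05 or less. Of all genes tested, 12.5% were higher and 11.8% lower at that level. With length and GC trends removed, the median was 0.06 and 1 of the 12 had such a p, beside 11.1% of all genes higher and 12.7% lower. Smarcc1, which encodes the core scaffold subunit BAF155, had 623, 976, 358, 382 and 421 normalized counts in WT replicates 1 to 5, and the lowest, median and highest of the 7 Chd8L+/- libraries were 540.2, 825 and 1046. The groups overlapped, with WT replicate 2 above all but 1 of the Chd8L+/- libraries and the other WT libraries mostly below them (log2 fold change 0.59, SE 0.24, limma adjusted p = 0.162). Smarca4, the ATPase also called BRG1, had 1826, 2116, 1408, 1799 and 1320.3 normalized counts in WT replicates 1 to 5 and 1589.6, 2195 and 2322 (lowest, median, highest) in Chd8L+/- libraries. Only 1 Chd8L+/- library lay below the highest WT library, and that one lay among the WT values (log2 fold change 0.34, SE 0.14, limma adjusted p = 0.163). Arid2, the ARID subunit of the PBAF form of the complex, had a log2 fold change of 0.28 (SE 0.12, limma adjusted p = 0.182), and Arid1b, which belongs to the BAF form, 0.23 (SE 0.11, limma adjusted p = 0.198).

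Other subunits differed less. Arid1a, the BAF subunit with the highest mean count of the role, had 2438, 2316, 1722, 2121 and 1621 normalized counts in WT replicates 1 to 5 and 1927, 2345 and 2643 (lowest, median, highest) in Chd8L+/- libraries. WT replicates 1, 2 and 4 lay among the Chd8L+/- libraries (log2 fold change 0.17, SE 0.13, limma adjusted p = 0.412). Smarcc2, the paralog of Smarcc1, had a log2 fold change of -0.04 (SE 0.13), and the other core subunits Smarcb1 and Smarce1 had 0.18 and 0.06. Smarcd3, a variant subunit known from heart and muscle and near the limit of the test here, had 9.78, 13.2, 11.1, 8.93 and 15.0 normalized counts in WT replicates 1 to 5 and 5.60, 9.78 and 16.6 (lowest, median, highest) in Chd8L+/- libraries. Its values were low and mixed in both genotypes (log2 fold change -0.17, SE 0.32, limma adjusted p = 0.771).

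Subunits of SWI/SNF complexes whose names fall outside the symbol rule were listed under 20 symbols, older synonyms included. Of these, 16 were in the table and tested, 12 with a log2 fold change above 0 and 4 below, and the median was 0.08 (6.98e-05 with length and GC trends removed). At an unadjusted p of 0.05 or less 5 were higher and 1 lower, where 12.5% of all genes tested were higher and 11.8% lower. Those with the smallest p were Dpf3 on the higher side (log2 fold change 0.90, limma adjusted p = 0.125), a histone reader of the complex, and Bcl7b on the lower side (-0.38, limma adjusted p = 0.158).

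Smarca5, Smarcad1 and Smarcal1 encode ATPases of the SNF2 type that work outside SWI/SNF complexes, and their log2 fold changes lay between 0.30 and 0.35 (median 0.34, or 0.22 with length and GC trends removed). Smarca5, the ATPase of ISWI complexes, which space nucleosomes, had 1070.2, 1183, 887, 807 and 722 normalized counts in WT replicates 1 to 5 and 863, 1289 and 1409 (lowest, median, highest) in Chd8L+/- libraries. Most Chd8L+/- libraries lay above the WT libraries, with the lowest among them (log2 fold change 0.35, SE 0.16, limma adjusted p = 0.210). Smarcal1, which rewinds DNA at stalled replication forks, had 148, 199.9, 98.8, 114 and 133 normalized counts in WT replicates 1 to 5 and 152, 164 and 201 (lowest, median, highest) in Chd8L+/- libraries. WT replicate 2 reached the top of the Chd8L+/- range and the other WT libraries lay below it (log2 fold change 0.34, SE 0.17, limma adjusted p = 0.233). Smarcad1, which acts at DNA breaks and in heterochromatin, had a log2 fold change of 0.30 (SE 0.13, limma adjusted p = 0.190).

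The pseudogene Smarca5-ps had 364, 422, 329, 295 and 248 normalized counts in WT replicates 1 to 5 and 302, 489.8 and 524 (lowest, median, highest) in Chd8L+/- libraries. In 5 of the 7 Chd8L+/- libraries it lay above the highest WT library (log2 fold change 0.40, SE 0.17, limma adjusted p = 0.180). The pseudogene could hold reads of its parent. The pseudogene transcript of 3123 bases aligned to bases 402 to 3557 of the Smarca5 transcript with 96.8% identity, 53 mismatches and 49 gap positions, and its longest identical run was 251 bases. Of the 3049 windows of 75 bases (the read length) in the pseudogene transcript, 753 (24.7%) also occur unchanged in the Smarca5 transcript. Both stretches below are shown because they hold the most differing bases of any gap-free stretch of one read length; sequences are from GENCODE M21, and capitals mark the 6 bases that differ.
Smarca5: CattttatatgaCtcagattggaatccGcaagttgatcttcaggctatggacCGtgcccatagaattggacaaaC
Smarca5-ps: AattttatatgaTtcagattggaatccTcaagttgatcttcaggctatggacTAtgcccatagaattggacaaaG
The Smarca5 stretch covers bases 2120 to 2194 of its transcript, in exons 13 and 14 of 24 on the minus strand (chr8:80716449-80716497 and chr8:80714041-80714066 of GRCm38). The Smarca5-ps stretch is bases 1692 to 1766 of its transcript on the plus strand (chr4:145465989-145466063). A read from here tells the copies apart, while a read from the identical windows does not, and how the authors' counting placed such reads is not given in the sources used here.

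Among ARID proteins outside SWI/SNF complexes, 4 of 6 had a log2 fold change above 0, with a median of 0.10, which was -0.0054 with length and GC trends removed. Arid5b (chromosome 10, 68092520 to 68278740), a DNA-binding partner of the demethylase PHF2, had 115, 151, 53.4, 65.5 and 94.0 normalized counts in WT replicates 1 to 5 and 125, 148 and 174 (lowest, median, highest) in Chd8L+/- libraries. WT replicate 2 stood among the Chd8L+/- libraries and the other 4 WT libraries lay below all of them (log2 fold change 0.73, SE 0.23, limma adjusted p = 0.122). Its paralog Arid5a, an RNA-binding protein that stabilizes cytokine transcripts, had 39.1, 57.8, 72.6, 71.4 and 40.1 normalized counts in WT replicates 1 to 5 and 42.7, 69.9 and 101 (lowest, median, highest) in Chd8L+/- libraries. The genotypes covered much the same range (log2 fold change 0.19, SE 0.26, limma adjusted p = 0.685). Arid3b had 171, 115, 138, 214 and 135 normalized counts in WT replicates 1 to 5 and 87.4, 133 and 174 (lowest, median, highest) in Chd8L+/- libraries. Its 2 lowest Chd8L+/- libraries lay below every WT library and WT replicate 4 lay above all others (log2 fold change -0.23, SE 0.19, limma adjusted p = 0.463). Arid4b, a subunit of the Sin3 deacetylase complex and the one with the highest mean count of these 6, had 1100.4, 1113, 1077, 1038 and 1167 normalized counts in WT replicates 1 to 5 and 793, 978 and 1376 (lowest, median, highest) in Chd8L+/- libraries. The Chd8L+/- values spread to both sides of the narrow WT range (log2 fold change -0.10, SE 0.13, limma adjusted p = 0.667).

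All 7 genes of the Kmt2 and Setd1 families, with Kmt2e placed here by its name, had a log2 fold change above 0, from 0.08 to 0.50 with a median of 0.10. With length and GC trends removed the median was -0.03. Setd1a (chromosome 7, 127776670 to 127800122), a catalytic subunit that trimethylates H3 at lysine 4, had 147, 213, 119, 114 and 108 normalized counts in WT replicates 1 to 5 and 157, 187 and 225 (lowest, median, highest) in Chd8L+/- libraries. Apart from WT replicate 2, the WT libraries lay below every Chd8L+/- library (log2 fold change 0.50, SE 0.17, limma adjusted p = 0.129). Setd1a was the 1 gene of the 7 (14.3%) with an unadjusted p of 0.05 or less, where 12.5% of all genes tested were higher. Kmt2d, which marks enhancers and had the highest mean count of the family, had 2668, 2441, 1712, 2109.5 and 2100.3 normalized counts in WT replicates 1 to 5 and 1844, 2367 and 2838 (lowest, median, highest) in Chd8L+/- libraries. The genotypes overlapped over most of their range (log2 fold change 0.09, SE 0.15, limma adjusted p = 0.732), and with length and GC trends removed the log2 fold change was -0.04. Its enhancer partner Kmt2c, with a log2 fold change of 0.08 (SE 0.14), was near it. Of 14 symbols listed for partners of these enzymes, synonyms included, 12 were tested, and 10 had a log2 fold change above 0 (median 0.16), with 2 higher and 1 lower at an unadjusted p of 0.05 or less. These shares of 16.7% and 8.33% lay near those of all genes tested (12.5% and 11.8%). Hcfc1, a cofactor of the Setd1 complexes, had the smallest p among those higher (log2 fold change 0.62, limma adjusted p = 0.125), and its relative Hcfc2 among those lower (-0.28, limma adjusted p = 0.154). Wdr5, Rbbp5, Ash2l and Dpy30, the shared core of these complexes, had log2 fold changes of 0.15, 0.21, 0.08 and 0.14.

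Of the 8 other SET domain genes, 7 had a log2 fold change above 0 and 1 below, and the median of 0.27 was second to that of the SNF2 type ATPases (0.34). With length and GC trends removed it was 0.13. Setd5 (chromosome 6, 113077365 to 113153435), which associates with the HDAC3 co-repressor complex and is mutated in some people with intellectual disability, had 1091, 1339, 1078, 1070.1 and 983 normalized counts in WT replicates 1 to 5 and 1308, 1369 and 1512 (lowest, median, highest) in Chd8L+/- libraries. The 4 WT libraries other than replicate 2 lay well below the Chd8L+/- libraries, and WT replicate 2 lay above the lowest of these (log2 fold change 0.31, SE 0.10, limma adjusted p = 0.121). With length and GC trends removed, its log2 fold change was 0.16 (adjusted p from limma 0.296). Setd6, which methylates the NF-kappaB subunit RelA, had 94.2, 144, 59.5, 62.5 and 80.2 normalized counts in WT replicates 1 to 5 and 79.5, 142 and 172 (lowest, median, highest) in Chd8L+/- libraries. The lowest Chd8L+/- library lay among the lower WT values and WT replicate 2 among the higher Chd8L+/- values (log2 fold change 0.62, SE 0.25, limma adjusted p = 0.159). Setdb1, which trimethylates H3 at lysine 9 and silences retroelements, had a log2 fold change of 0.45 (SE 0.19, limma adjusted p = 0.166). Setd4, the least abundant of the role, had 61.3, 66.0, 40.3, 37.7 and 67.7 normalized counts in WT replicates 1 to 5 and 28.5, 69.1 and 129.8 (lowest, median, highest) in Chd8L+/- libraries. The Chd8L+/- values ran from below the lowest WT library to far above the highest (log2 fold change 0.34, SE 0.32, limma adjusted p = 0.526).

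Setd3 (chromosome 12, 108106431 to 108179314), which methylates a histidine of actin, was the 1 SET domain gene with an estimate below 0 and the most abundant of them. It had 1916, 1465, 2073, 2289 and 1817 normalized counts in WT replicates 1 to 5 and 1469.8, 1642 and 1811 (lowest, median, highest) in Chd8L+/- libraries. Every Chd8L+/- library lay under the median of WT, and WT replicate 2 lay below all of them (log2 fold change -0.22, SE 0.11, limma adjusted p = 0.250). Without WT replicate 2 the log2 fold change was -0.31 (limma adjusted p = 0.0335). Of 25 symbols listed for histone methyltransferases of other families, synonyms included, 20 were tested, 14 with a log2 fold change above 0, with a median of 0.08 (0.012 with length and GC trends removed). At an unadjusted p of 0.05 or less 7 were higher and 1 lower, where 12.5% of all genes tested were higher and 11.8% lower. Nsd2, which dimethylates H3 at lysine 36, had the smallest p of those higher (log2 fold change 0.56, limma adjusted p = 0.136) and Mecom of those lower (-0.99, limma adjusted p = 0.153). Ezh2, the catalytic subunit of Polycomb complex PRC2, which is high in dividing cells, had a log2 fold change of 0.29 (limma adjusted p = 0.213), and its paralog Ezh1 had -0.04.

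**Figure D3:**
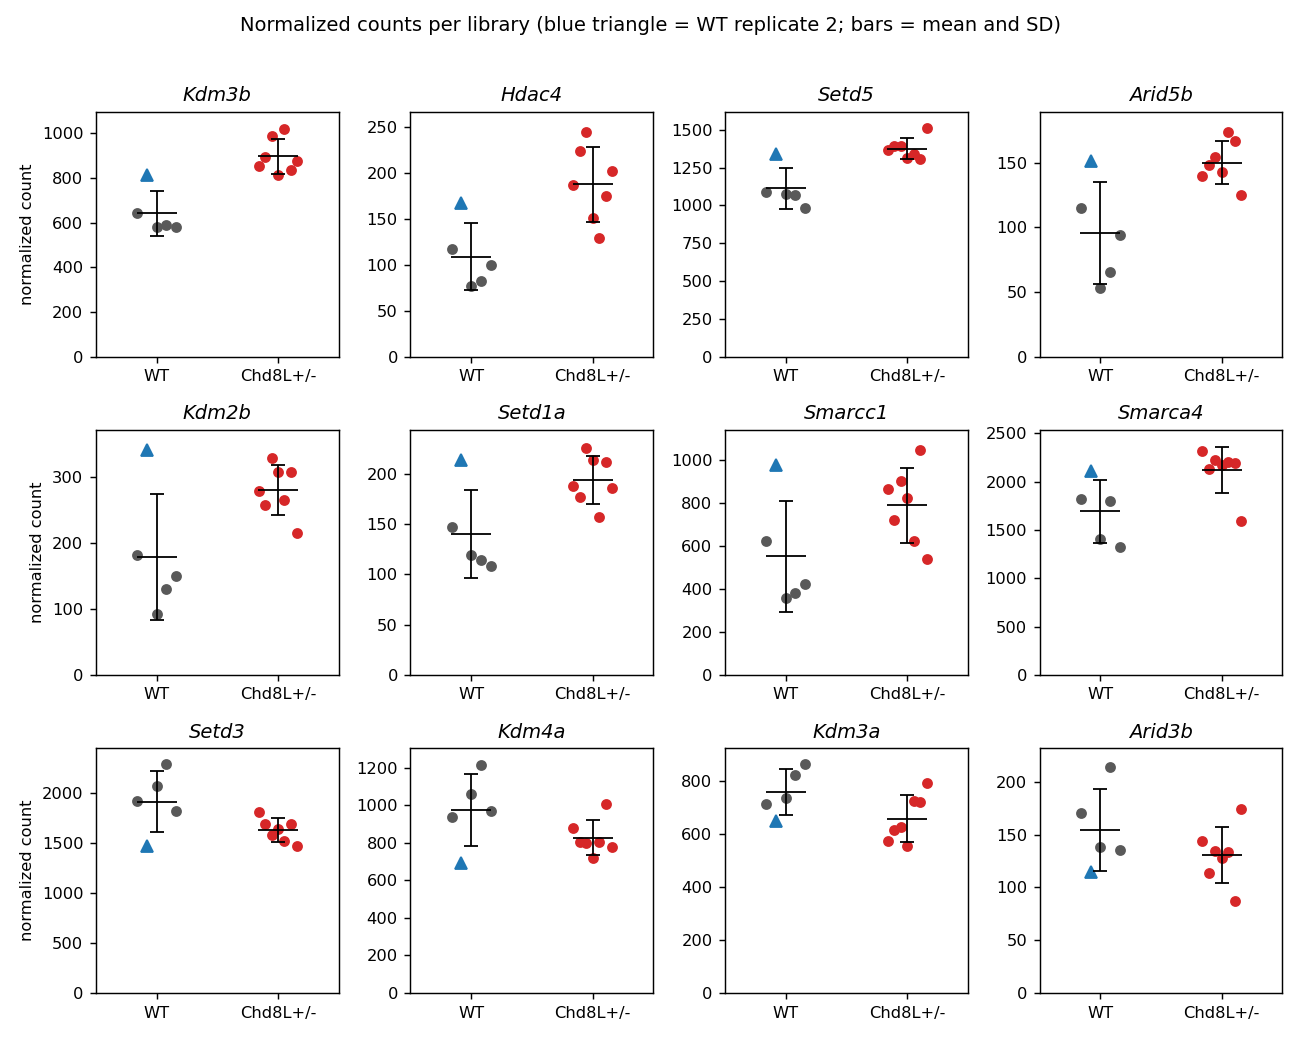
Normalized counts in each library of 12 genes, from left to right 5 WT (grey, with WT replicate 2 as a blue triangle) and 7 Chd8L+/- libraries (red); lines are the mean and the SD of a genotype, and each vertical axis starts at 0. In the 8 genes of the upper rows WT replicate 2 is the highest WT library, and in the 4 of the lowest row (Setd3, Kdm4a, Kdm3a and Arid3b) it is the lowest.

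Lysine demethylases did not share a direction: 9 of 17 had a log2 fold change above 0 and 8 below, with a median of 0.05. With length and GC trends removed the median was -0.08, with 3 genes higher and 2 lower at an unadjusted p of 0.05 or less. Of all genes in that fit, 11.1% were higher and 12.7% lower. Kdm3b (chromosome 18, 34777047 to 34838660), which removes methyl groups from lysine 9 of H3, had the smallest p of all 64 genes (0.000573 from limma). It had 643, 815, 579.7, 591 and 582 normalized counts in WT replicates 1 to 5 and 811, 875 and 1018 (lowest, median, highest) in Chd8L+/- libraries. The genotypes overlapped by a narrow margin, since 6 of 7 Chd8L+/- libraries lay above WT replicate 2 and all 7 lay above the other WT libraries (log2 fold change 0.49, SE 0.11, limma adjusted p = 0.121). It had an adjusted p of 0.00626 in DESeq2, and 0.00304 in limma without WT replicate 2. The log2 fold change was 0.36 with length and GC trends removed. Kdm2b (chromosome 5, 122870665 to 122989823), which binds CpG islands and brings a Polycomb complex there, had 182, 339.9, 92.8, 129.9 and 149 normalized counts in WT replicates 1 to 5 and 215, 278 and 329 (lowest, median, highest) in Chd8L+/- libraries. WT replicate 2 had the highest value of the 12 libraries, while the other 4 WT libraries lay below every Chd8L+/- library (log2 fold change 0.77, SE 0.25, limma adjusted p = 0.125). Without that library the log2 fold change was 1.04 (limma adjusted p = 0.00338). Kdm8, a JmjC domain protein with low counts, had 42.7, 76.1, 56.5, 29.8 and 72.7 normalized counts in WT replicates 1 to 5 and 55.5, 79.1 and 93.4 (lowest, median, highest) in Chd8L+/- libraries. The genotypes overlapped (log2 fold change 0.50, SE 0.24, limma adjusted p = 0.220).

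Of the 8 demethylases with estimates below 0, those with the lowest estimates were Kdm4a, Kdm3a and Kdm5c. Kdm4a (chromosome 4, 118136957 to 118180043), which acts on lysines 9 and 36 of H3, had 939, 693, 1057, 1214 and 967 normalized counts in WT replicates 1 to 5 and 717, 804 and 1006 (lowest, median, highest) in Chd8L+/- libraries. WT replicate 2 lay below all Chd8L+/- libraries and the other WT libraries lay above most of them (log2 fold change -0.22, SE 0.13, limma adjusted p = 0.314). Without WT replicate 2 the log2 fold change was -0.34 (limma adjusted p = 0.0403). Kdm3a, the paralog of Kdm3b, had 711, 649, 734, 823 and 863 normalized counts in WT replicates 1 to 5 and 555, 626 and 792 (lowest, median, highest) in Chd8L+/- libraries. It was below the lowest WT library in 4 Chd8L+/- libraries (log2 fold change -0.20, SE 0.12, limma adjusted p = 0.295). Kdm5c, an X-linked demethylase of lysine 4 of H3, had 2255, 1585, 2098, 2439 and 1673 normalized counts in WT replicates 1 to 5 and 1401, 1637 and 2334 (lowest, median, highest) in Chd8L+/- libraries. The genotypes overlapped over most of the range (log2 fold change -0.18, SE 0.15, limma adjusted p = 0.473). Kdm2a, a demethylase of lysine 36 of H3, had 3215, 2098, 2578, 3085 and 2201 normalized counts in WT replicates 1 to 5 and 2055, 2446 and 2850.1 (lowest, median, highest) in Chd8L+/- libraries. Again the values were mixed (log2 fold change -0.10, SE 0.13, limma adjusted p = 0.662), and its log2 fold change was 0.03 with quantile normalization. Kdm6a and Kdm6b, which remove methyl groups from lysine 27 of H3, had log2 fold changes of 0.05 and -0.16, and the LSD1 gene Kdm1a had 0.10 (SE 0.11). Kdm5d, on the Y chromosome, was read in all 12 libraries, at 283 to 414 normalized counts.

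Histone deacetylases had a log2 fold change above 0 in 7 of the 10 genes tested, with a median of 0.10. Hdac4 (chromosome 1, 91928779 to 92195699), a class IIa deacetylase that shuttles between nucleus and cytoplasm and binds MEF2 factors, had 117, 167, 76.6, 82.3 and 100.3 normalized counts in WT replicates 1 to 5 and 129, 187 and 245 (lowest, median, highest) in Chd8L+/- libraries. The 2 lowest Chd8L+/- libraries lay below WT replicate 2 but above the other 4 WT libraries (log2 fold change 0.81, SE 0.21, limma adjusted p = 0.121). DESeq2 gave it an adjusted p of 0.0232. Its class IIa paralog Hdac7 had a log2 fold change of 0.39 (SE 0.25) and Hdac5 -0.08 (SE 0.17). Hdac6, the tubulin deacetylase of the cytoplasm, had 129.8, 175, 74.6, 125 and 91.5 normalized counts in WT replicates 1 to 5 and 131, 148 and 200.3 (lowest, median, highest) in Chd8L+/- libraries. Its Chd8L+/- libraries lay above all WT libraries but replicate 2 (log2 fold change 0.44, SE 0.20, limma adjusted p = 0.194). Hdac10, a polyamine deacetylase related to it, had 164, 186, 129, 142 and 132 normalized counts in WT replicates 1 to 5 and 132, 164 and 178 (lowest, median, highest) in Chd8L+/- libraries. Here every Chd8L+/- library lay within the WT range (log2 fold change 0.09, SE 0.14, limma adjusted p = 0.726).

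Hdac1, Hdac2 and Hdac3, the nuclear class I enzymes of the Sin3, NuRD and NCoR complexes, had smaller estimates. Hdac1 had 893, 854, 951, 1082 and 871 normalized counts in WT replicates 1 to 5 and 670.0, 843 and 949.6 (lowest, median, highest) in Chd8L+/- libraries. In 4 Chd8L+/- libraries it lay below all WT libraries (log2 fold change -0.15, SE 0.11, limma adjusted p = 0.413). Hdac3 had 1118, 1083, 887, 959 and 1026 normalized counts in WT replicates 1 to 5 and 947, 1116 and 1313 (lowest, median, highest) in Chd8L+/- libraries. The genotypes overlapped (log2 fold change 0.13, SE 0.11, limma adjusted p = 0.476), and Hdac2 had a log2 fold change of 0.11 (SE 0.19). Hdac9, which was left out of the test, had 4.44, 5.07, 20.2, 8.93 and 25.1 normalized counts in WT replicates 1 to 5 and 0.910, 5.18 and 17.8 (lowest, median, highest) in Chd8L+/- libraries. Each library of either genotype was low, and the highest values were in WT replicates 3 and 5. Of 29 listed partners of the deacetylases, all tested, 17 had a log2 fold change above 0 and 12 below, with a median of 0.04 (-0.018 with length and GC trends removed), and at an unadjusted p of 0.05 or less 6 were higher and 3 lower. Mta1 of the NuRD complex had the smallest p of those higher (log2 fold change 0.41, limma adjusted p = 0.134) and Brms1 of the Sin3 complex of those lower (-0.45, limma adjusted p = 0.126). Histone acetyltransferases, which oppose these enzymes, had 10 of 12 log2 fold changes above 0 with a median of 0.17 (0.11 with length and GC trends removed), 3 higher and 1 lower at an unadjusted p of 0.05 or less. Beside the counts of both lists, 12.5% of all genes tested were higher and 11.8% lower at that level. Kat6b had the smallest p on the higher side (log2 fold change 0.36, limma adjusted p = 0.138) and Kat2b on the lower (-0.32, limma adjusted p = 0.202). Kat2a and Kat2b encode paired alternative subunits of the SAGA complex, and the log2 fold change of Kat2a was 0.88 (limma adjusted p = 0.153).

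Levels of different genes were compared per kilobase of exon, as the mean normalized count divided by exon length. Exon length was the union of all annotated exons of a gene, which can be longer than the transcript in use. The order of genes per kilobase therefore depends in part on the annotation. In WT libraries they ran from 0.869 per kilobase for Hdac9 to 417 for Smarcd2. Within SWI/SNF complexes Smarca4 (262 per kilobase) stood well above Smarca2 (34.1), Smarcc2 (385) above Smarcc1 (70.5), Smarcd2 above Smarcd1 (74.8) and Smarcd3 (2.27), and Arid1a (178) above Arid2 (70.4) and Arid1b (60.0). Among deacetylases Hdac1 (270.1) and Hdac3 (250.3) were highest, while Hdac4 (6.88), Hdac7 (15.0) and Hdac6 (20.5) were low. Setd3 (317) was the highest SET domain gene, and Kdm5c (283), Kdm6b (255) and Kdm2a (182) the highest demethylases. Kmt2d, Kmt2e and Kmt2b lay at 111, 110.1 and 109 per kilobase and did not differ beyond their spread (SD 18.3, 11.8 and 13.0). Kdm2b (16.5), Setd1a (20.6), Arid5b (9.52) and Hdac4, 4 of the 6 genes with the largest estimates, were at the low end of their roles, while the other two, Setd6 (46.3) and Smarcc1, stood in the middle of theirs.

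**Figure D4:**
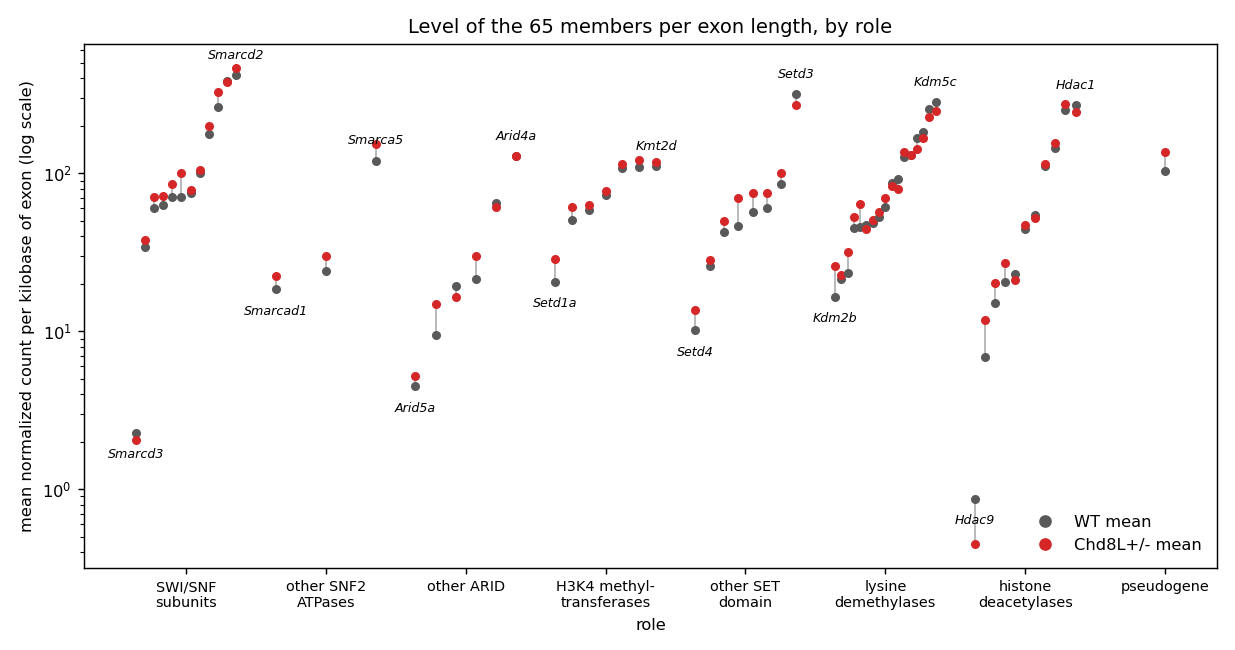
Mean normalized count per kilobase of exon in WT (grey) and Chd8L+/- libraries (red) for the 65 genes, on a log scale, ordered within each role by the WT level; lines join the 2 means of a gene. The highest and lowest gene of a role are named, from Smarcd2 (417 in WT) to Hdac9 (0.869 in WT).

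Related genes can differ in direction, and a ratio of 2 genes in the same library does not depend on the scaling of that library. For 23 pairs of paralogs the difference of log2(normalized count + 1) was compared between genotypes with a exact permutation test (two-sided, every assignment of the 12 libraries to genotypes), which cannot give a p under 0.00126. The genes behind these ratios are those described above, so the ratios are not a separate measurement. At a p adjusted over the 23 pairs of 0.05 or less, 2 ratios differed, and 7 did at that level with no adjustment. How often ratios of other gene pairs pass these levels was not tested. The pairs were also chosen with earlier results of these data known, so the counts do not set paralogs apart from other genes.

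The log2 ratio of Kdm3a to Kdm3b was 0.15, -0.33, 0.34, 0.48 and 0.57 in WT replicates 1 to 5 and -0.66, -0.54 and -0.14 (lowest, median, highest) in Chd8L+/- libraries. In 4 of 5 WT libraries Kdm3a had the higher count, and in all 7 Chd8L+/- libraries Kdm3b had it. WT replicate 2 lay inside the Chd8L+/- range (difference -0.70, exact permutation p = 0.00379, adjusted p = 0.0436). Per kilobase of exon, Kdm3a kept the higher mean in both genotypes (91.9 against 45.5 in WT, and 79.9 against 63.7 in Chd8L+/- libraries). In Chd8L+/- libraries that order comes from the exon lengths used, 8225 bases for Kdm3a and 14095 for Kdm3b. The log2 ratio of Hdac6 to Hdac10 was -0.33, -0.09, -0.78, -0.18 and -0.52 in WT replicates 1 to 5 and -0.15, -0.04 and 0.22 (lowest, median, highest) in Chd8L+/- libraries. WT replicate 2 was again the WT library that overlapped the Chd8L+/- range (difference 0.36, exact permutation p = 0.00379, adjusted p = 0.0436). With length and GC trends removed, the differences were -0.69 and 0.26, with p adjusted over the pairs of 0.0871 and 0.150 (exact permutation test). With a single library left out, the difference was -0.84 to -0.61 for Kdm3a to Kdm3b and 0.26 to 0.43 for Hdac6 to Hdac10. The p adjusted over the pairs was then 0.0232 to 0.105 for each ratio (exact permutation test), in a test with fewer assignments and a larger smallest p. It was at or under 0.05 without WT replicate 2 or Chd8L+/- replicate 7 and above it without any other single library.

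The other 5 ratios with an unadjusted p of 0.05 or less were Hdac4 to Hdac5 (difference 0.89), Kdm2a to Kdm2b (-0.87), Arid3a to Arid3b (0.64), Kdm4a to Kdm4c (-0.34) and Arid1a to Arid2 (-0.11), each with an adjusted p of 0.149 in the exact permutation test. In each of the 5 the genotypes overlapped. Among alternative subunits of SWI/SNF complexes, the ratio of Smarcc1 to Smarcc2 differed by 0.63 (exact permutation p = 0.0619, adjusted p = 0.178) and that of the ATPases Smarca4 to Smarca2 by 0.19 (exact permutation p = 0.323, adjusted p = 0.413). Ratios within the Kmt2 family moved least, by 0.02 for Kmt2a to Kmt2b and -0.01 for Kmt2c to Kmt2d (exact permutation p = 0.866 and 0.890, adjusted p = 0.890 for each).

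**Figure D5:**
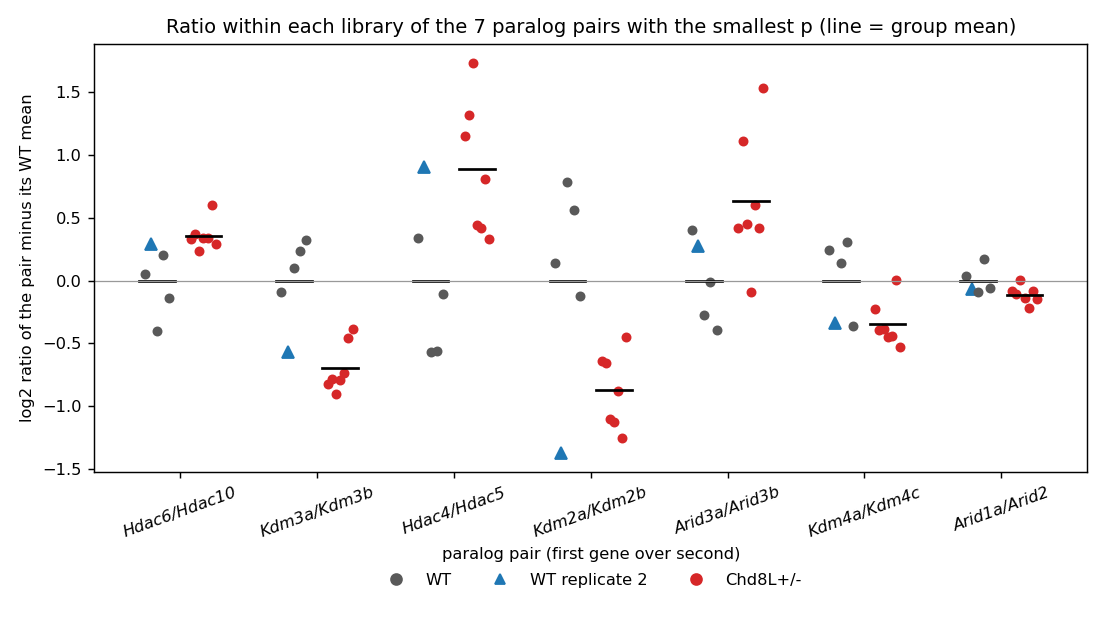
Log2 ratio of the first to the second gene in each library, minus the WT mean, for the 7 pairs with the smallest p. Grey points and blue triangles (replicate 2) are WT, red points are Chd8L+/-, and lines are group means. WT replicate 2 lies below the Chd8L+/- range for Kdm2a/Kdm2b and within that range for every other pair shown. Other WT libraries also lie within it for Hdac4/Hdac5, Arid3a/Arid3b, Kdm4a/Kdm4c and Arid1a/Arid2.

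Markers of the cells in the preparation were read alongside. Epithelial markers, with Epcam, Cdh1 and Vil1 among them, were all read, and summed to 167480 to 296769 normalized counts in WT and 161862 to 289413 in Chd8L+/- libraries (median log2 fold change -0.20 over 8 genes). Of 7 enterocyte markers 1 had an estimate above 0 and 6 below (median -0.53, 253721 to 587086 in WT and 218720 to 537903 in Chd8L+/- libraries), and all 5 stem cell markers had one above 0 (median 0.47, 3945 to 12227 and 7080 to 14756). All 7 tuft cell markers had an estimate below 0 and an unadjusted p of 0.05 or less (median -1.98, sums of 2288 to 21721 and 1315 to 9169), and 0 of them had an adjusted p of 0.05 or less from limma with all libraries. All 7 were lower at that level in DESeq2, and in limma without WT replicate 2. Of 10 lymphocyte markers in the table, 9 had an estimate below 0 (median -0.20, 1240.1 to 3126 and 1017 to 4987), and of 8 myeloid markers 7 had one above 0 (median 0.64, 2392 to 3702 and 2414 to 4837). The 1 myeloid marker below 0 was Ptprc (log2 fold change -0.64, limma adjusted p = 0.187). With a mean of 1090 normalized counts over all libraries, it made up much of the myeloid sums. Stromal markers summed to 172 to 633 normalized counts in WT and 239 to 2105 in Chd8L+/- libraries, with a median of 1.72 over the 8 tested. Of the nuclear retained RNAs, Malat1 had a log2 fold change of 0.10 and Neat1 -0.28. The part of these cell types in the values of the histone modifiers was not tested.

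Some of the values could include reads of neighbours. The use of strand in the counting is not given in the sources used here. Genes on the opposite strand overlap Kdm3b (Gm26538), Kdm2b (Rnf34), Hdac4 (Gm26720), Smarcc1 (Dhx30) and Arid3b (Gm17231), while Gm49388 overlaps Setd1a on its own strand. Setdb1 (Cers2), Arid4b (Ggps1), Hdac7 (Slc48a1) and Smarcd3 (Chpf2) are also overlapped from the opposite strand, and the list is not complete. Overlap was taken over whole gene spans, introns included, so the genes need not share exons.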

How the data were processed

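Libraries of poly(A) RNA were sequenced by the authors as single-end reads of 75 bases, mapped to mm10 with Tophat2 and analyzed with the DESeq2 pipeline. The deposited unit is a signal, namely normalized counts that the authors made by dividing reads by a size factor. The counting program, annotation, strand setting and gene filter are not given in the sources used here. Values in each library were whole multiples of 1 read (0.864 to 1.25) to within 0.000147, so reads were recovered for 100% of values. Of 14244 rows, 21 had names turned into dates and 2 repeated a symbol; 0 columns belonged to other samples.

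Genotypes were compared with limma 3.58.1 in R 4.3.3 (lmFit, eBayes with trend) on log2(normalized count + 1) for the 12808 genes that averaged 10 or more, without a block. Adjusted p-values are Benjamini-Hochberg over all genes tested. edgeR 4.0.16 and DESeq2 1.42.0 on recovered reads were alternatives. The others were pseudocounts of 0.5 and 5, no filter, a mean of at least 50, quantile normalization, removal of exon length and GC trends (natural splines with 4 degrees of freedom), blocks by replicate number or by the opening letter of the library name, and each library left out in turn. DESeq2 without WT replicate 2 was added after the data had been seen. Paralog ratios were compared by two-sided exact permutation.

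The genes examined, their roles, the paralog pairs and the other gene lists were chosen with earlier results of these data known. Values are given for the 6 largest and 6 smallest log2 fold changes, the 6 smallest p-values in each direction, the genes of called paralog pairs, and the highest and lowest mean count of each role, and, of the other lists, the smallest p in each direction. Arid2, Arid1b, Smarca4, Smarcad1, Setdb1, Kat2a, Ezh2 and others given only by a log2 fold change were chosen after their values were seen. Annotation came from GENCODE M21, in which all 65 symbols were found. On simulated reads with known changes, limma left some changed genes uncalled, more of them among the smaller changes. Library depth limits the precision of genes with few reads, and p-values measure the spread between mice.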

Additional observations from a re-analysis of the deposited data

Results flagged for a closer look

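Of 66 groups of libraries tested for a value far from the rest (Dixon's criterion), 2 had one, where chance gives 3.3. Setd5 was high in Chd8L+/- replicate 7, at 10.6 on the log2(normalized count + 1) scale, against 10.4 in the other Chd8L+/- libraries (10.35 to 10.44). The log2 ratio of Hdac6 to Hdac10 was high in Chd8L+/- replicate 6, at 0.22, against -0.15 to -0.01 in the others.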

How the results depend on the processing

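The median log2 fold change of the 64 genes was 0.13 in the main fit and stayed between 0.06 and 0.18 under all 23 alternatives. Its lowest value was with length and GC trends removed. Each move was smaller than the SD between libraries of a single library's median deviation over these genes (0.095). That SD is not the error of a difference between genotypes. The number of genes called in the whole table was 3 and became 5 with edgeR, 811 with DESeq2, 451 with the library letter as a block, 1 with length and GC trends removed, 4112 with DESeq2 without WT replicate 2, and 0 to 3534 with 1 library left out, the highest without WT replicate 2. The number of histone modifier and SWI/SNF genes called was 0 and became 3 with DESeq2, 1 (Kdm3b, adjusted p = 0.0493) with the letter block, 20 with DESeq2 without WT replicate 2 and 0 to 18 with 1 library left out, 18 without WT replicate 2. Of 2 paralog ratios past the threshold, 0 were with length and GC trends removed, and 0 to 6 with 1 library left out (6 without WT replicate 2), where fewer assignments raise the smallest p the exact test can give. Of 643 alternative values for 28 named genes, 609 kept their direction and side of the threshold, 31 passed it and 3 changed sign: Hdac10 (-0.041) and Kdm2a (0.035) with quantile normalization and Kmt2d (-0.040) with length and GC trends removed. With the replicate number as a block, limma called 0 genes in all and 0 of the 64. The replicate numbers gave no sign of pairing the mice. Same-numbered libraries had correlations of -0.34 to 0.19 between their deviations, and 1 of 5 WT libraries correlated best with its own number. Grouping of the mice by litter was not tested.

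A p above the threshold does not show that a gene is at the same level in both genotypes. Fold changes on the log2(normalized count + 1) scale understate changes of genes with few reads, such as Smarcd3.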

Other observations

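Counted by role without WT replicate 2, the genes higher at an adjusted p of 0.05 or less from limma were 3 of 12 SWI/SNF subunits, 2 of 3 SNF2 type ATPases, 3 of 8 SET domain genes, 3 of 17 demethylases, 2 of 10 deacetylases, and 1 each of 6 ARID genes and of 7 Kmt2 and Setd1 genes, with Smarca5-ps. Those lower were 1 SET domain gene (Setd3) and 1 demethylase (Kdm4a). Of all genes tested in this fit, 14% were higher and 13.6% lower, so the shares of deacetylase, demethylase, ARID, Kmt2 and Setd1 genes lay near that of all genes. The roles hold few genes, and 1 gene more or less changes the share of a small role widely. In the other lists, 6 of 20 histone methyltransferases of other families were higher and 1 lower, 4 of 12 acetyltransferases were higher and 1 lower, 4 of 16 further SWI/SNF subunits were higher and 1 lower, 5 of 29 deacetylase partners were higher and 3 lower, and 2 of 12 partners of the Kmt2 and Setd1 enzymes were higher and 1 lower. The shares of deacetylase partners and of Kmt2 and Setd1 partners that were higher also lay near that of all genes. Of the 20 S and G2/M phase genes 19 were higher. The removal of WT replicate 2 was chosen among the leave-one-out fits with its place among the Chd8L+/- libraries known, and how far the differing size of these counts follows dividing cells was not tested.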
